A study of Mus musculus with 30 samples.

Results

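The proximal tubule is the nephron segment that takes back most of what the glomerulus filters, and 40 mouse genes of its transport and metabolism are described here across 15 kidneys. The genes were taken from a list of named genes, drawn up with earlier results of these data known, and all 40 were found among the 19468 rows of the kidney table. They comprise transporters for phosphate, sugars, sulfate, amino acids, ions and water, the endocytic receptors, enzymes of fatty acid, arginine, creatine and glucose metabolism, peroxisomal proteins, brush border peptidases and the transcription factor Hnf4a. Poly(A) RNA came from C57BL/6 mice that drank 0.2 mg/ml doxycycline for 7 days. The kidney groups were i4F p53 KO (without Trp53), i4F Ink4a/Arf KO (without the Cdkn2a locus) and i4F (labelled i4F_WT), with 5 mice each. In i4F mice doxycycline switches on a transgenic cassette of the reprogramming factors Oct4, Sox2, Klf4 and Myc, so all 3 groups carried the cassette and received the drug. In a second table, 15 pancreas libraries bore the labels p53 KO (where i4F is not mentioned), i4F Ink4a/Arf KO and i4F, again with 5 mice each, and they served to look for kidney transcripts in another organ. The age and sex of the mice and the promoter and cell types that drive the cassette are not given in the sources used here.

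Filtered phosphate, glucose, amino acids and bicarbonate are recovered in the proximal tubule by sodium-coupled carriers in a dense brush border, while filtered proteins are taken up by the endocytic receptors megalin and cubilin. The cells run on fatty acids rather than glucose, make glucose themselves and carry out steps of arginine and creatine synthesis. In the mouse, several of their genes depend on androgen, so that male and female kidneys differ in them. Hnf4a is a transcription factor needed for the differentiated state of these cells.

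The deleted gene Trp53 measured 10.1, 5.27, 4.9, 7.11 and 7.77 FPKM in i4F p53 KO kidneys, against 14.1, 17.9, 17.6, 13.9 and 16.3 FPKM in i4F Ink4a/Arf KO and 14.8, 16, 15.4, 20.3 and 15.5 FPKM in i4F kidneys. All 5 i4F p53 KO values lay below all others, and the log2 fold change against i4F was -1.14 (SE 0.15, adjusted p = 0.00547). Cdkn2a stayed at or below 0.261 FPKM in all 15 kidneys, too low for its deletion to be seen. Pou5f1, the gene of Oct4, measured 15.7, 0.65, 3.48, 8.86 and 4.88 FPKM in i4F p53 KO kidneys, against 0.492, 2.55, 4.87, 0 and 1.05 FPKM in i4F Ink4a/Arf KO and 0.151, 0, 0.0417, 5.4 and 1.25 FPKM in i4F kidneys, and the groups overlapped. By Xist and Ddx3y, all 5 i4F p53 KO kidneys were male, i4F Ink4a/Arf KO replicate 1 was female, and i4F replicates 4 and 5 were female. Between 11539 and 12473 genes reached 1 FPKM (fragments per kilobase of transcript, scaled to library size) in a kidney. FPKM carry no read counts, so the depth of each value is unknown.

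Levels within the list spanned from the top of the kidney's genes to modest values. In i4F kidneys, 31 of the 40 averaged at least 100 FPKM and 7 at least 1000 FPKM. Of the 100 genes with the highest mean in i4F kidney, 9 were from the list, and of the top 500, 24 were. Kap led with 44672 ± 24287 FPKM (SD, n = 5), 23.5 times the next gene. Napsa, Miox, Slc27a2, Slc34a1, Cyp4b1 and Acy3 followed with means of 1901, 1827, 1521, 1437, 1187 and 1066 FPKM. Among these 6, neighbouring means were at most 1.21 times apart and, other than Miox against Slc27a2, differed by less than the SD of the higher gene. Slc34a3, Slc5a1 and Slc9a3 were the lowest, at 29.2 ± 6.2, 21.7 ± 4.08 and 18.6 ± 3.35 FPKM. FPKM are per length, so these levels can be set side by side. Defining markers of the segment were found in every kidney, with a lowest value of 656 FPKM for Slc34a1 and 39.4 FPKM for Lrp2.

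**Figure D1:**
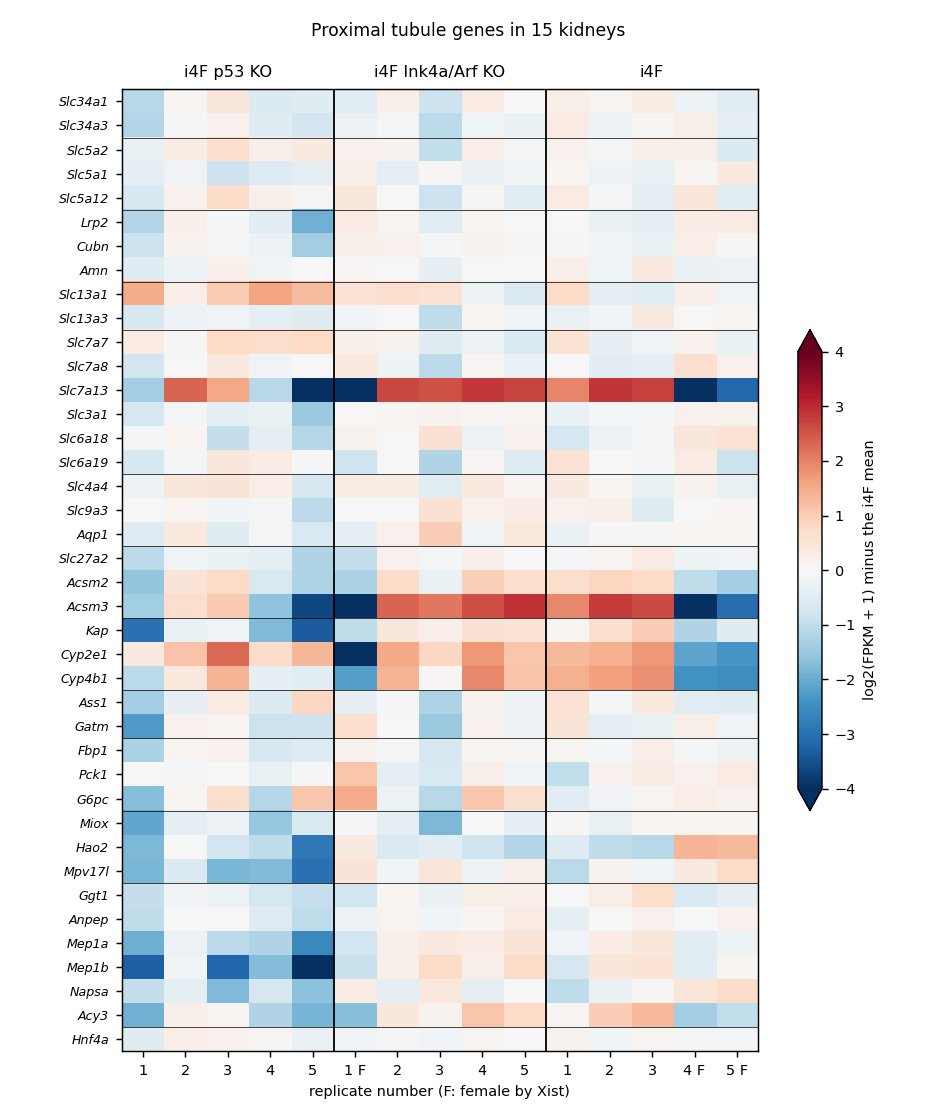
Heat map of the 40 genes (rows, grouped by role with thin lines) in 15 kidneys (columns, by group and replicate number, F for female), coloured by log2(FPKM + 1) minus the mean of the 5 i4F kidneys. Slc7a13 and Acsm3 are dark blue in the 3 female kidneys and in i4F p53 KO replicate 5, and many rows are blue in i4F p53 KO replicates 1, 4 and 5 but pale in replicate 2.

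The main question was whether proximal tubule transcripts differ when the reprogramming factors are induced without p53. Most of the list was lower in i4F p53 KO than in i4F kidneys, but none of the 40 genes passed the test over all genes, and the 5 knockout mice differed widely among themselves. The lower genes with the smallest p were the peroxisomal Mpv17l, with a log2 fold change of -1.80, the meprin subunits Mep1b and Mep1a, with -2.57 and -1.40, and the protease Napsa, with -1.09, or -0.68 in male kidneys alone. The sulfate carrier Slc13a1 and the basolateral amino acid carrier Slc7a7 had positive log2 fold changes of 1.12 and 0.53. Values were compared as log2(FPKM + 1) with limma, and a gene was called at a Benjamini-Hochberg adjusted p under 0.05 over 12431 genes. By this test 0 of the 40 were called, against 32 of all genes (0.257%). At an unadjusted p under 0.05, 13 of the 40 were lower and 2 higher, beside 7.51% of all genes lower and 5.69% higher. The log2 fold change was negative for 34 of the 40, beside 44.6% of all genes. The median over the 40 was -0.43, and over all genes tested 0.03. In none of the 40 did the 5 i4F p53 KO values lie wholly below or above the 5 i4F values, as they did below in 1.65% and above in 0.845% of all genes. In bulk tissue, fewer cells of a type and less RNA per cell cannot be told apart. Nothing in the labels says whether litters or dates were shared, so the p values measure the spread between these mice.

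**Figure D2:**
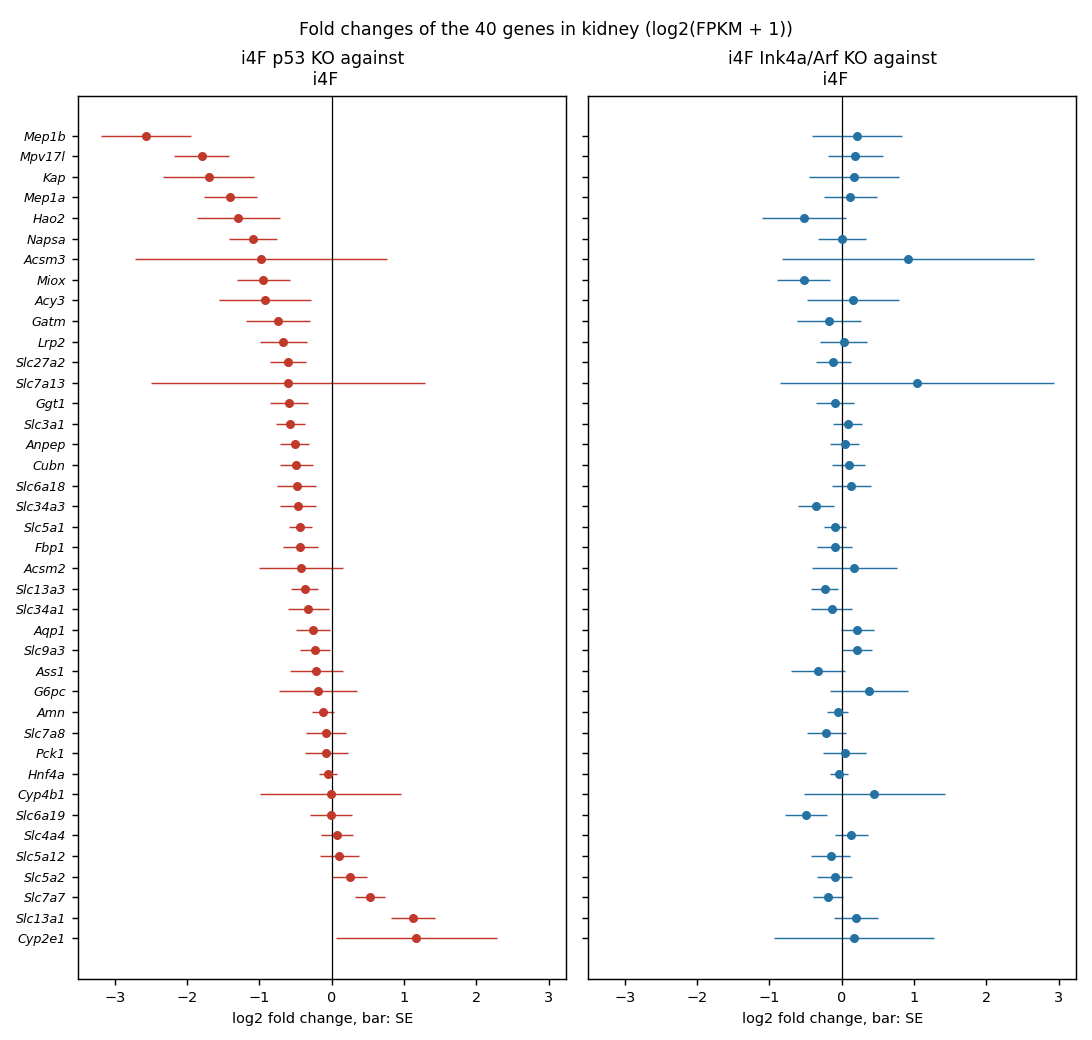
Log2 fold changes of the 40 genes with their SE (bars) for i4F p53 KO against i4F (left) and i4F Ink4a/Arf KO against i4F (right), ordered by the left panel and on the same axis, where both comparisons share the i4F kidneys. On the left 34 genes lie below 0, with Mep1b lowest at -2.57, and on the right 19 genes do.

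Phosphate is recovered by Slc34a1 (NaPi-IIa, the main carrier) and Slc34a3 (NaPi-IIc). Slc34a1 measured 656, 1491, 1912, 968 and 1003 FPKM in i4F p53 KO kidneys, against 1048, 1625, 794, 1789 and 1441 FPKM in i4F Ink4a/Arf KO and 1645, 1526, 1751, 1235 and 1027 FPKM in i4F kidneys. i4F p53 KO replicate 3 was the highest of all 15 kidneys and replicate 1 the lowest, and the groups overlapped. The log2 fold change of i4F p53 KO against i4F was -0.32 (SE 0.28, adjusted p = 0.662). Slc34a3 measured 12.1, 27, 32.2, 20.2 and 16.8 FPKM in i4F p53 KO kidneys, against 24.2, 27.8, 13.3, 25.2 and 23.8 FPKM in i4F Ink4a/Arf KO and 36.6, 24.4, 29.5, 33.7 and 21.8 FPKM in i4F kidneys. Below every i4F kidney lay i4F p53 KO replicates 1, 4 and 5, and of i4F Ink4a/Arf KO only replicate 3. Its log2 fold change was -0.47 (SE 0.25, adjusted p = 0.438) in i4F p53 KO and -0.35 (SE 0.25, adjusted p = 0.997) in i4F Ink4a/Arf KO. A promoter of Slc34a1 is shown because it holds a pair of short sites of the HNF1 factors, which act in proximal tubule cells. The motif GTTAAT, searched on both strands, is in capitals, and the RefSeq window (build GRCm38.p6, plus strand, chr13:55399398-55399647) lies outside annotated exons. The window is inside the annotated gene (55398187 to 55415592), not upstream of it.
Slc34a1: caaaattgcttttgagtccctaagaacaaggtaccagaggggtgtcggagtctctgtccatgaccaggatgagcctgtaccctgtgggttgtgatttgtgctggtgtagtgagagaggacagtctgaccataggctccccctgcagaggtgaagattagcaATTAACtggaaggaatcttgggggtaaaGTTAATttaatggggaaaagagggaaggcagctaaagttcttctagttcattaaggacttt
Of the 40 genes, 32 had a promoter in the RefSeq table, in 42 windows of 300 bases that run from 250 bases before to 50 after a start. GTTAAT was found in 8 windows, of Acsm2, G6pc, Hao2, Hnf4a, Miox, Pck1, Slc34a1 and Slc7a7, and in 6.43% of all 32851 windows.

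Carriers of sugar, lactate and sulfate were mixed in direction in i4F p53 KO. Slc5a1 (SGLT1, a glucose carrier of the late proximal tubule) measured 16.7, 19.5, 11.5, 14.8 and 16.3 FPKM in i4F p53 KO kidneys, against 25.3, 16.4, 21.9, 17.6 and 19.7 FPKM in i4F Ink4a/Arf KO and 22.7, 18.5, 17.1, 22.4 and 27.5 FPKM in i4F kidneys. i4F p53 KO replicates 1, 3, 4 and 5 lay below every i4F kidney, while replicate 2 lay inside the i4F range, and the log2 fold change was -0.43 (SE 0.15, adjusted p = 0.232). Slc5a2 (SGLT2, the main glucose carrier) ranged from 119.8 to 242 FPKM in i4F p53 KO kidneys, against 74.7 to 179.8 FPKM in i4F Ink4a/Arf KO kidneys and 102 to 174 FPKM in i4F kidneys. The lactate carrier Slc5a12 ranged from 46.3 to 119.7 FPKM in i4F p53 KO kidneys, against 40.3 to 98.4 FPKM in i4F Ink4a/Arf KO kidneys and 53.9 to 102 FPKM in i4F kidneys. For both carriers the groups overlapped, and the highest value was i4F p53 KO replicate 3. Slc13a1, the sodium sulfate carrier, measured 503, 218, 367, 544 and 440.5 FPKM in i4F p53 KO kidneys, against 269, 280.3, 270.4, 157 and 121 FPKM in i4F Ink4a/Arf KO and 306, 142, 133, 209 and 159.6 FPKM in i4F kidneys. Replicates 1, 3, 4 and 5 of i4F p53 KO were above all 10 other kidneys, and replicate 2 was inside both other groups. Its log2 fold change against i4F was 1.12 (SE 0.31, adjusted p = 0.116). Replicate 2 was the i4F p53 KO kidney nearest to i4F, so leaving it out had to widen the change. Without replicate 2 the change was 1.34 (adjusted p = 0.039), past the threshold. In that fit 1.34% of all genes passed, against 0.257% with all kidneys. The dicarboxylate carrier Slc13a3 measured 129, 173, 186, 156 and 146 FPKM in i4F p53 KO kidneys, against 187, 203, 100.3, 214 and 191 FPKM in i4F Ink4a/Arf KO and 167, 188, 261, 201 and 213 FPKM in i4F kidneys. The lowest of the 15 was i4F Ink4a/Arf KO replicate 3, and the log2 fold change was -0.38 (SE 0.19, adjusted p = 0.409) in i4F p53 KO and -0.23 (SE 0.19, adjusted p = 0.997) in i4F Ink4a/Arf KO.

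The endocytic receptors had a wide spread in i4F p53 KO. Lrp2 (megalin) measured 66.6, 176, 148, 112 and 39.4 FPKM in i4F p53 KO kidneys, against 192, 163, 114, 165 and 152 FPKM in i4F Ink4a/Arf KO and 153, 127, 116, 188 and 189.6 FPKM in i4F kidneys. i4F p53 KO replicates 1, 4 and 5 lay below every i4F kidney and replicates 2 and 3 inside the i4F range, and the log2 fold change was -0.67 (SE 0.32, adjusted p = 0.393). Cubn (cubilin) ranged from 17.2 to 51.6 FPKM in i4F p53 KO kidneys, against 44.4 to 54.5 FPKM in i4F Ink4a/Arf KO kidneys and 38.6 to 57.3 FPKM in i4F kidneys, with its lowest values in i4F p53 KO replicates 5 and 1. Amn, the membrane partner of cubilin, ranged from 65.8 to 109 FPKM in i4F p53 KO kidneys, against 73.5 to 95.5 FPKM in i4F Ink4a/Arf KO kidneys and 77.5 to 123 FPKM in i4F kidneys. The Lrp2 promoter is shown for its match to CAAAGTNCA, a short form of the HNF4 site, in capitals (GRCm38.p6, minus strand, chr2:69586066-69586279, outside annotated exons).
Lrp2: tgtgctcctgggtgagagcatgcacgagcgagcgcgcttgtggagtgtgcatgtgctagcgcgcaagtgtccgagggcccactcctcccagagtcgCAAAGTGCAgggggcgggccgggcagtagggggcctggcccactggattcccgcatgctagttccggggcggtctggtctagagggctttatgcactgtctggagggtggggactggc
CAAAGTNCA, searched on both strands, was in 2 of the 42 windows, of Lrp2 and Slc3a1, and in 1.19% of all windows. It does not overlap GTTAAT in letters. Hnf4a itself measured 106, 179.5, 167, 155 and 123 FPKM in i4F p53 KO kidneys, against 135, 144, 139, 159 and 149 FPKM in i4F Ink4a/Arf KO and 166, 138, 158, 139.7 and 145 FPKM in i4F kidneys. i4F p53 KO kidneys held both the highest and the lowest value, in replicates 2 and 1, and the log2 fold change was -0.05 (SE 0.13, adjusted p = 0.895). It turned to 0.06 without i4F p53 KO replicate 1 and to 0.0033 without replicate 5.

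The amino acid carriers differed in sign, with 5 of 6 log2 fold changes negative in i4F p53 KO against i4F, beside 44.6% of all genes. Slc7a7 (y+LAT1, which releases cationic amino acids at the basolateral side) measured 137, 112, 188, 178 and 189 FPKM in i4F p53 KO kidneys, against 125, 120.3, 77.8, 92.2 and 71 FPKM in i4F Ink4a/Arf KO and 161, 86.9, 97.8, 122 and 90.5 FPKM in i4F kidneys. i4F p53 KO replicates 3, 4 and 5 were the highest of the 15 kidneys, and replicates 1 and 2 lay inside the i4F range. The log2 fold change was 0.53 (SE 0.21, adjusted p = 0.285) against i4F. Slc3a1 (rBAT, the heavy chain that brings cystine carriers to the brush border) measured 133, 205, 166, 178 and 75.6 FPKM in i4F p53 KO kidneys, against 211, 230.1, 237, 226 and 232 FPKM in i4F Ink4a/Arf KO and 179.9, 208, 208, 244 and 238 FPKM in i4F kidneys. The 5 i4F p53 KO values lay below all 5 i4F Ink4a/Arf KO values and 4 of them, all but replicate 2, below all i4F values. Its log2 fold change was -0.57 (SE 0.20, adjusted p = 0.230) against i4F. Slc6a19 (B0AT1, the main carrier of neutral amino acids) measured 68, 102, 147, 131 and 103 FPKM in i4F p53 KO kidneys, against 61.2, 106, 46.4, 113 and 74.1 FPKM in i4F Ink4a/Arf KO and 162, 109.6, 103, 134 and 58 FPKM in i4F kidneys. Its groups overlapped, with log2 fold changes of -0.01 (SE 0.29, adjusted p = 0.994) in i4F p53 KO and -0.49 (SE 0.29, adjusted p = 0.997) in i4F Ink4a/Arf KO. Slc6a18, a carrier of glycine and other neutral amino acids in the mouse, ranged from 64.3 to 151 FPKM in i4F p53 KO kidneys, against 122 to 217 FPKM in i4F Ink4a/Arf KO kidneys and 87.7 to 211 FPKM in i4F kidneys. Slc7a8 (LAT2, another basolateral carrier) ranged from 28.2 to 62.7 FPKM in i4F p53 KO kidneys, against 22.6 to 62.5 FPKM in i4F Ink4a/Arf KO kidneys and 33.8 to 76.3 FPKM in i4F kidneys. Slc7a13, another partner of Slc3a1, is described with the sex-dependent genes.

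The groups overlapped for all 3 ion and water carriers. Slc9a3 (NHE3, the sodium proton exchanger) measured 18.2, 19.5, 16.9, 17.8 and 8.27 FPKM in i4F p53 KO kidneys, against 18.1, 18.4, 28.4, 20.7 and 22.7 FPKM in i4F Ink4a/Arf KO and 20.6, 21.5, 12.9, 18.7 and 19.2 FPKM in i4F kidneys. The lowest value was i4F p53 KO replicate 5 and the highest i4F Ink4a/Arf KO replicate 3, and the log2 fold change was -0.23 (SE 0.21, adjusted p = 0.670) in i4F p53 KO and 0.21 (SE 0.21, adjusted p = 0.997) in i4F Ink4a/Arf KO. The water channel Aqp1 ranged from 206 to 413 FPKM in i4F p53 KO kidneys, against 249 to 621 FPKM in i4F Ink4a/Arf KO kidneys and 264 to 334 FPKM in i4F kidneys. The bicarbonate carrier Slc4a4 ranged from 65.3 to 148 FPKM in i4F p53 KO kidneys, against 75.6 to 136 FPKM in i4F Ink4a/Arf KO kidneys and 83.6 to 133 FPKM in i4F kidneys, with a log2 fold change in i4F p53 KO of 0.07 (SE 0.23, adjusted p = 0.922).

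In fatty acid, arginine, creatine and glucose metabolism, Slc27a2 (FATP2, a fatty acid carrier and very long chain acyl-CoA synthetase) had the smallest p. It measured 733, 1381, 1243, 1163 and 649.7 FPKM in i4F p53 KO kidneys, against 783, 1715, 1466, 1718 and 1539.6 FPKM in i4F Ink4a/Arf KO and 1439, 1614, 1875, 1322 and 1354 FPKM in i4F kidneys. i4F p53 KO replicates 1, 3, 4 and 5 lay below every i4F kidney and replicate 2 inside the i4F range, and the log2 fold change was -0.61 (SE 0.25, adjusted p = 0.30). Acsm2, a medium-chain acyl-CoA synthetase, ranged from 109 to 565 FPKM in i4F p53 KO kidneys, against 135 to 639 FPKM in i4F Ink4a/Arf KO kidneys and 131 to 590.3 FPKM in i4F kidneys, and in the last 2 groups its females were lowest. Ass1 (argininosuccinate synthase) ranged from 332 to 1488 FPKM in i4F p53 KO kidneys, against 360.5 to 932 FPKM in i4F Ink4a/Arf KO kidneys and 607 to 1259 FPKM in i4F kidneys, and its highest and lowest values were both in i4F p53 KO. Gatm, which starts creatine synthesis, averaged 247 ± 137 FPKM in i4F p53 KO, 345 ± 154 FPKM in i4F Ink4a/Arf KO and 361 ± 94 FPKM in i4F kidneys (SD, n = 5 each). Fbp1, Pck1 and G6pc, enzymes of gluconeogenesis, had log2 fold changes of -0.43, -0.07 and -0.19 in i4F p53 KO against i4F, and none passed an unadjusted p under 0.05. Of the 40, Pck1 had the narrowest relative range within i4F p53 KO kidneys, at 326 to 411 FPKM, where G6pc ranged from 51.4 to 363 FPKM.

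The 3 peroxisome and oxidase genes were all lower in i4F p53 KO only at an unadjusted p under 0.05, as 7.51% of all genes were. Their median log2 fold change was -1.29, which is that of Hao2 and was smaller in male kidneys alone. Mpv17l, a peroxisomal and mitochondrial protein linked to the handling of reactive oxygen (chromosome 16, 13903161 to 13949619, GRCm38), measured 42.3, 101, 41.7, 44.1 and 18.3 FPKM in i4F p53 KO kidneys, against 218, 141, 214, 131 and 179 FPKM in i4F Ink4a/Arf KO and 71.7, 166, 136, 196 and 253 FPKM in i4F kidneys. Replicates 1, 3, 4 and 5 of i4F p53 KO lay below all 10 other kidneys, and replicate 2 lay below all of them but i4F replicate 1. The log2 fold change was -1.80 (SE 0.38, adjusted p = 0.0609) against i4F, and it passed after median-of-ratios scaling, -1.83 (adjusted p = 0.0396), as 0.5% of all genes did. It also passed without i4F p53 KO replicate 2, the nearest of its group to i4F (adjusted p = 0.0112), as 1.34% of all genes did. Leaving out i4F replicate 1, the lowest i4F kidney, gave a pass as well (adjusted p = 0.0273). Mpv17l did not pass in male kidneys alone, at -1.43 (adjusted p = 0.133), or with the Xist level as a covariate, at -1.52 (adjusted p = 0.0536). Its females lay above males in both other groups. Miox, the oxygenase that starts the breakdown of myo-inositol, measured 434, 1414, 1542, 639 and 1221 FPKM in i4F p53 KO kidneys, against 1758, 1384, 527, 1785 and 1393 FPKM in i4F Ink4a/Arf KO and 1861, 1473, 1925, 1938 and 1938 FPKM in i4F kidneys. i4F p53 KO replicates 1, 2, 4 and 5 lay below every i4F kidney, and so did 3 of the 5 i4F Ink4a/Arf KO kidneys. Its log2 fold change was -0.95 (SE 0.37, adjusted p = 0.282) in i4F p53 KO and -0.53 (SE 0.37, adjusted p = 0.997) in i4F Ink4a/Arf KO. Hao2, a peroxisomal hydroxyacid oxidase, ranged from 31 to 229 FPKM in i4F p53 KO kidneys, and its log2 fold change against i4F was -1.29 (SE 0.58, adjusted p = 0.348). In male kidneys alone it was -0.41 (adjusted p = 0.657), and with the Xist level as a covariate -0.59 (adjusted p = 0.431). Of all 15 kidneys, the 2 female i4F kidneys had the highest values, at 589 and 568 FPKM.

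Brush border and lysosomal peptidases and deacylases had a median log2 fold change of -1.01 in i4F p53 KO against i4F. All 6 were negative, 5 at an unadjusted p under 0.05 and 0 after adjustment. Of all genes, 44.6% were negative, 7.51% lower at that unadjusted p and 0.169% called lower. Mep1a and Mep1b encode the subunits of meprin, a metalloprotease of the brush border. Mep1a (chromosome 17, 43474324 to 43502812) measured 133, 444, 253, 227 and 87.4 FPKM in i4F p53 KO kidneys, against 307, 600.4, 666, 637 and 745 FPKM in i4F Ink4a/Arf KO and 473, 648, 719, 388 and 456 FPKM in i4F kidneys. Every i4F p53 KO kidney but replicate 2 lay below all 10 others, and the log2 fold change was -1.40 (SE 0.37, adjusted p = 0.105). Mep1b measured 7.19, 69.2, 7.64, 22.5 and 2.38 FPKM in i4F p53 KO kidneys, against 40.8, 89.2, 129, 91.3 and 133 FPKM in i4F Ink4a/Arf KO and 47.5, 107, 112, 57.8 and 82.1 FPKM in i4F kidneys. Replicates 1, 3, 4 and 5 of i4F p53 KO lay below all other kidneys, and replicate 2 was inside the range of both other groups. Its log2 fold change was -2.57 (SE 0.63, adjusted p = 0.0966). For both subunits, replicate 2 was the i4F p53 KO kidney nearest to i4F, so leaving it out had to widen the changes. Without replicate 2 they were -1.69 (adjusted p = 0.0256) for Mep1a and -3.17 (adjusted p = 0.0076) for Mep1b. Both passed there, as 1.34% of all genes did, against 0.257% with all kidneys. Napsa, an aspartic protease, measured 899, 1324, 519, 1105 and 557 FPKM in i4F p53 KO kidneys, against 2221, 1352, 2360.2, 1327 and 1752 FPKM in i4F Ink4a/Arf KO and 873, 1471, 1802, 2454 and 2903 FPKM in i4F kidneys. All 5 i4F p53 KO values lay below all i4F Ink4a/Arf KO values, but i4F replicate 1 lay below i4F p53 KO replicates 1, 2 and 4, and the log2 fold change was -1.09 (SE 0.33, adjusted p = 0.169). In male kidneys alone it was -0.68 (adjusted p = 0.289). Anpep (aminopeptidase N) measured 21.6, 44.5, 44.7, 31.4 and 21.5 FPKM in i4F p53 KO kidneys, against 37.9, 48.9, 41.9, 47.5 and 57.2 FPKM in i4F Ink4a/Arf KO and 34.9, 45.4, 50.7, 45 and 50.4 FPKM in i4F kidneys. i4F p53 KO replicates 1, 4 and 5 lay below every other kidney and replicates 2 and 3 inside the i4F range, and the log2 fold change was -0.51 (SE 0.20, adjusted p = 0.291). Ggt1, which breaks down glutathione, and Acy3, a deacylase of mercapturic acids, had log2 fold changes of -0.59 (SE 0.26, adjusted p = 0.342) and -0.93 (SE 0.64, adjusted p = 0.557), or -0.91 and -1.71 in male kidneys alone. The Mep1a promoter is shown because the subunit pair was low together (GRCm38.p6, minus strand, chr17:43502813-43503023, outside annotated exons). It holds neither GTTAAT nor CAAAGTNCA on either strand.
Mep1a: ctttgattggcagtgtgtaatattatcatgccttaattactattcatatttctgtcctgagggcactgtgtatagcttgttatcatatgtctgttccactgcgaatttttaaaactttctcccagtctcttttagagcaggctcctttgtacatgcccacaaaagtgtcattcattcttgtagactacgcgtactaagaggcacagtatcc

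**Figure D3:**
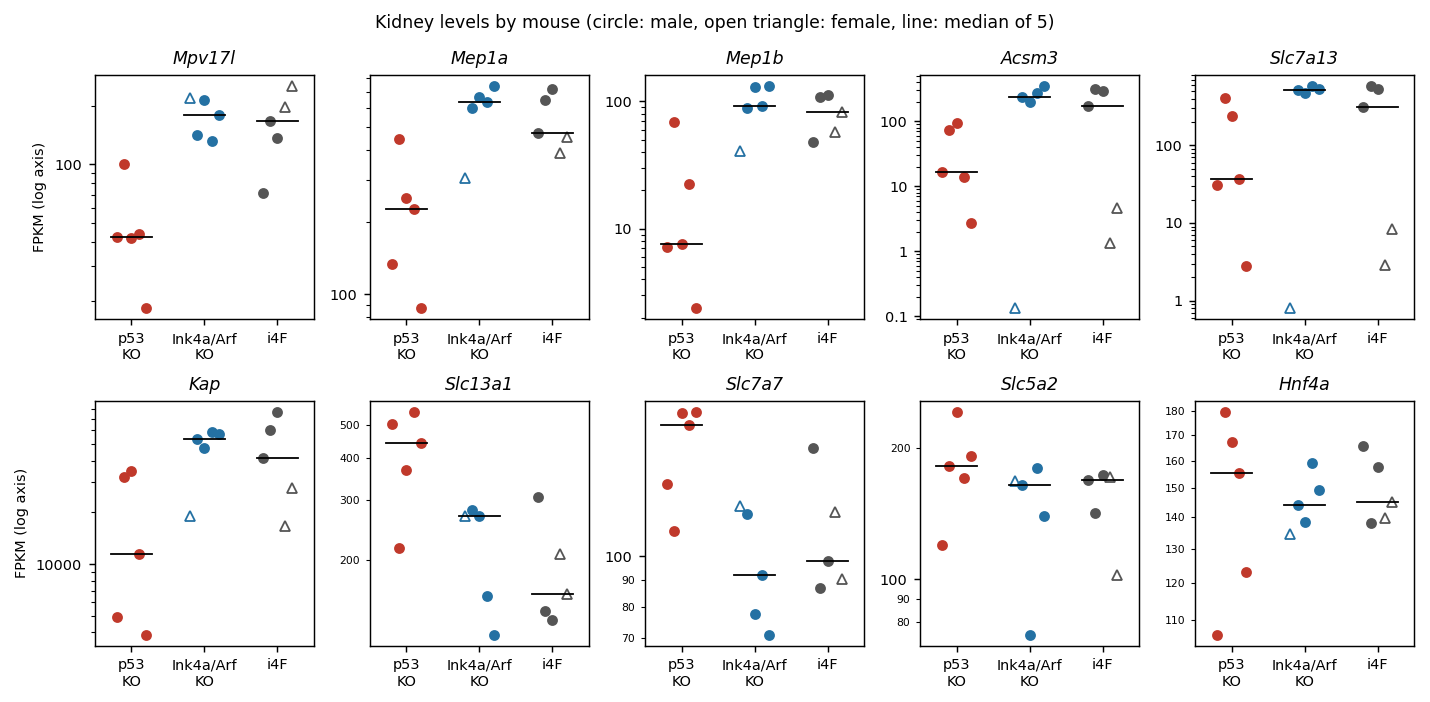
FPKM of 10 genes in each kidney on log axes, for i4F p53 KO, i4F Ink4a/Arf KO and i4F, with circles for male and open triangles for female mice and a line at the median of 5. Mpv17l, Mep1a and Mep1b are low in 4 of 5 i4F p53 KO kidneys, and Slc13a1 stands high in the same 4. Slc7a7 stands high in i4F p53 KO replicates 3, 4 and 5, and Acsm3 and Slc7a13 split by sex in the other 2 groups.

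Kap, the kidney androgen-regulated protein, gave 0.796% to 6.96% of all FPKM in i4F p53 KO kidneys, against 4.0% to 12% in i4F Ink4a/Arf KO kidneys and 3.59% to 13.5% in i4F kidneys. It measured 4889.8, 32328, 34631, 11455 and 3889 FPKM in i4F p53 KO kidneys, against 19097, 53198, 47332, 59025 and 57456 FPKM in i4F Ink4a/Arf KO and 41489, 60524, 76813, 16741 and 27795 FPKM in i4F kidneys. i4F p53 KO replicates 1, 4 and 5 lay below all 10 other kidneys, females included, and replicates 2 and 3 lay between the female and the male i4F values. The log2 fold change was -1.70 (SE 0.63, adjusted p = 0.255). FPKM are shares of a library, so the Kap level moves the FPKM of all other genes. After rescaling without Kap the median log2 fold change over the 40 was -0.51, and Mpv17l changed by -1.88 (adjusted p = 0.0417), past the threshold like 0.606% of all genes. Leaving Kap out of the list, the other 39 genes made up 1.59%, 3.37%, 3.48%, 2.01% and 2.10% of the remaining FPKM in i4F p53 KO kidneys, against 2.87%, 3.89%, 3.03%, 4.57% and 3.91% in i4F Ink4a/Arf KO and 3.59%, 4.0%, 4.22%, 3.11% and 3.06% in i4F kidneys. Replicates 1, 4 and 5 of i4F p53 KO were below all other kidneys in that share, and replicates 2 and 3 were inside the i4F range. The promoters of Kap (minus strand, chr6:133853763-133853917) and of Acsm3 (plus strand, chr7:119760673-119760922), both GRCm38.p6 and outside annotated exons, are shown because in both genes all 5 i4F p53 KO kidneys lay below the other 7 male kidneys. Neither holds GTTAAT or CAAAGTNCA on either strand.
Kap: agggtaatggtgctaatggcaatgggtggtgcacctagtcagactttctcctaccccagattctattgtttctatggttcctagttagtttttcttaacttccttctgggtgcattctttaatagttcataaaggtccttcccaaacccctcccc
Acsm3: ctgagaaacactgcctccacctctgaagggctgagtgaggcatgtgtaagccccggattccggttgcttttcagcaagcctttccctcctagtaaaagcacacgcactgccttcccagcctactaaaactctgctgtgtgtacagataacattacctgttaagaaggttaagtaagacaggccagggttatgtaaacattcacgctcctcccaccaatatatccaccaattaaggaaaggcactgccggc

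In the 2 groups that held both sexes, several members differed widely between females and males. These genes were picked out after their values were seen. Slc7a13 averaged 5.58 FPKM in the 2 female and 479 FPKM in the 3 male i4F kidneys. Acsm3, of the same enzyme family as Acsm2, averaged 3.01 FPKM in the 2 female and 261 FPKM in the 3 male i4F kidneys. The cytochrome P450 gene Cyp4b1 averaged 111 FPKM in the 2 female and 1904 FPKM in the 3 male i4F kidneys, and Cyp2e1 averaged 55.2 FPKM in the 2 female and 744 FPKM in the 3 male i4F kidneys. Hao2 ran the other way, at 579 FPKM in the 2 female and 127 FPKM in the 3 male i4F kidneys. The only female i4F Ink4a/Arf KO kidney measured 0.796 FPKM of Slc7a13, 0.133 FPKM of Acsm3 and 12 FPKM of Cyp2e1, against lowest values of 473, 201 and 464 FPKM in the 4 males of that group. Females lay below all males of their group in both i4F and i4F Ink4a/Arf KO for 10 of the 40: Slc7a13, Slc27a2, Acsm2, Acsm3, Kap, Cyp2e1, Cyp4b1, Ggt1, Mep1a and Acy3. This held for 8.49% of all genes. Females lay above all males in both groups for 5 of the 40, Lrp2, Slc7a8, G6pc, Hao2 and Mpv17l, and for 22.6% of all genes. With 2 females against 3 males and 1 against 4, these are descriptions without a test.

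All 5 i4F p53 KO mice were male, yet some of their kidneys had levels of Slc7a13 and Acsm3 near the female ones. This did not hold for Cyp4b1, at 288 to 1566 FPKM in i4F p53 KO kidneys, against 108 to 130 FPKM in the 3 females. It did not hold for Hao2 either, at 31 to 229 FPKM in i4F p53 KO kidneys, against 295 to 589 FPKM in the 3 females. Slc7a13 measured 31, 407, 238, 36.6 and 2.78 FPKM in i4F p53 KO kidneys, against 0.796, 514, 473, 576 and 527 FPKM in i4F Ink4a/Arf KO and 314, 587, 537, 2.86 and 8.3 FPKM in i4F kidneys. i4F p53 KO replicates 2 and 3 were within or near the male range, replicates 1 and 4 were over 8 times lower than the lowest male kidney of the other groups, and replicate 5 was at the level of the females. Acsm3 measured 16.7, 74.7, 95.8, 14.1 and 2.71 FPKM in i4F p53 KO kidneys, against 0.133, 233, 201, 274 and 354 FPKM in i4F Ink4a/Arf KO and 174, 319.6, 288, 1.35 and 4.67 FPKM in i4F kidneys, and all 5 i4F p53 KO values lay below all 7 other males. Cyp2e1 did not follow: it measured 338, 582, 1268, 438 and 659 FPKM in i4F p53 KO kidneys, against 12, 752, 464, 868 and 569.8 FPKM in i4F Ink4a/Arf KO and 645, 711, 875, 60.5 and 49.8 FPKM in i4F kidneys, and the 5 i4F p53 KO values all lay above the 3 female kidneys. Against the 3 male i4F kidneys alone, all 5 i4F p53 KO values were lower for 6 of the 40 (Slc27a2, Acsm3, Kap, Cyp4b1, Ggt1 and Mep1a), beside 5.03% of all genes, and higher for 0 of the 40, beside 6.55%. Against all 7 other males, Slc27a2, Acsm3, Kap and Mep1a stayed separate, 4 of 40 beside 1.5% of all genes. With the Xist level as a covariate, 4 of the 40 passed against i4F, beside 1.96% of all genes (1.24% lower): Acsm3 at -3.69 (adjusted p = 0.0358), Mep1b at -2.86 (adjusted p = 0.0477), Mep1a at -1.70 (adjusted p = 0.0358) and Ggt1 at -0.91 (adjusted p = 0.0383). In a fit of male kidneys alone, 0 of the 40 passed, beside 0.198% of all genes, with a median log2 fold change of -0.46. Several members that differ by sex moved between the fits: in male kidneys alone Cyp2e1 was -0.32, against 1.17 with all kidneys, Cyp4b1 -1.65 against -0.02, Acsm3 -3.43 against -0.98, Slc7a13 -3.11 against -0.60 and Acsm2 -1.20 against -0.43 (log2 fold change, i4F p53 KO against i4F). Slc7a8 and Pck1 changed sign there, at 0.20 and 0.09 against -0.08 and -0.07. Besides Slc7a8, the genes higher in females of both groups were Lrp2, G6pc, Hao2 and Mpv17l. In male kidneys alone their log2 fold changes were -0.47, -0.05, -0.41 and -1.43.

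The 5 i4F p53 KO kidneys differed in how far the whole list was down. In replicates 1 to 5, 27, 1, 9, 18 and 26 of the 40 genes lay below all 5 i4F kidneys, beside 16.7%, 12.7%, 28.5%, 14.1% and 36% of all genes. In i4F Ink4a/Arf KO replicates 1 to 5 these counts were 10, 2, 16, 0 and 5, beside 16.1%, 19.4%, 13.9%, 30.8% and 13.1% of all genes. The median log2 difference of the 40 from the i4F mean was -0.99, 0.06, 0.09, -0.46 and -0.70 in i4F p53 KO replicates 1 to 5 and between -0.19 and 0.12 in i4F Ink4a/Arf KO. Replicate 1 combined the lowest Gatm and Slc34a1 of the 15 kidneys with the highest Pou5f1. Pou5f1 measured 15.7, 0.65, 3.48, 8.86 and 4.88 FPKM in i4F p53 KO replicates 1 to 5. i4F replicate 4, at 5.4 FPKM of Pou5f1, had a median log2 difference of 0.07. A link between Pou5f1 and the list was not tested. i4F p53 KO replicate 5 had the lowest Lrp2, Cubn, Mep1a, Mep1b, Slc3a1 and Mpv17l of all 15, but the highest Ass1.

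Transcripts known from damaged tubules were high in some of the same kidneys. Havcr1 (KIM-1) measured 422, 2.08, 0.791, 19.9 and 2.07 FPKM in i4F p53 KO kidneys, against 0.403, 27.9, 80.9, 0.97 and 2.75 FPKM in i4F Ink4a/Arf KO and 5.72, 0.872, 0.953, 1.72 and 10.7 FPKM in i4F kidneys. Lcn2 (NGAL) measured 561, 29.2, 15.2, 268 and 80.3 FPKM in i4F p53 KO kidneys, against 20.4, 42.7, 199, 1.67 and 19.6 FPKM in i4F Ink4a/Arf KO and 7.43, 5.61, 2.3, 18.9 and 24.8 FPKM in i4F kidneys. Both were highest in i4F p53 KO replicate 1, and Lcn2 was next highest in replicate 4. Of 17 tested genes of tubule injury, 17 had a positive log2 fold change in i4F p53 KO against i4F, with a median of 1.08 and 9 at an unadjusted p under 0.05. Of all genes, 44.6% were negative, 5.69% were higher at that p and 0.0885% were called higher. Only the complement gene C3 was called in the list, with a log2 fold change against i4F of 3.19 (SE 0.56, adjusted p = 0.0262). The summed level of the list, in which no gene was at 0 in all 15 kidneys, ranged from 1294 to 13667 FPKM in i4F p53 KO kidneys, against 617 to 4597 FPKM in i4F Ink4a/Arf KO kidneys and 635 to 2450 FPKM in i4F kidneys. Pancreatic transcripts also differed between kidneys: Clps was above 100 FPKM in i4F p53 KO replicates 2, 3 and 4 and in i4F replicate 5, and the acinar list summed to 251 to 2870 FPKM in i4F p53 KO kidneys, against 44.6 to 300.1 FPKM in i4F Ink4a/Arf KO kidneys and 226 to 2495 FPKM in i4F kidneys. All 20 acinar genes tested were positive in i4F p53 KO against i4F, with a median of 1.55, 5 higher at an unadjusted p under 0.05 and 0 called. Of all genes there, 44.6% were negative, 5.69% higher at that p and 0.257% called. All 20 were negative in i4F Ink4a/Arf KO against i4F, with a median of -2.44, 17 lower at that p and 0 called. Of all genes in that comparison, 51% were negative, 2.53% lower at that p and 0% called. The neutrophil genes S100a8 and S100a9 rose in i4F p53 KO by 2.43 and 2.51 on the log2 scale (limma adjusted p = 0.0128 and 0.0199), and the leukocyte list summed to 395 to 741 FPKM, against 305 to 1158 FPKM in i4F Ink4a/Arf KO kidneys and 341 to 474 FPKM in i4F kidneys. The part of injury, pancreatic and leukocyte transcripts, of sex and of factor level in the proximal tubule values was not tested. Without the 4 kidneys above 100 FPKM of Clps, 8 of the 40 were called lower against i4F, beside 1.24% of all genes called lower, with a median of -0.96. They were Mep1b, Kap, Mep1a, Mpv17l, Lrp2, Cubn, Slc3a1 and Anpep. That fit left i4F p53 KO replicates 1 and 5, which are among the 3 kidneys with the lowest share of FPKM in the list. Without i4F p53 KO replicate 2 alone, 4 were called (Mep1b, Mpv17l and Mep1a lower, Slc13a1 higher), beside 1.34% of all genes in either direction. In these 4 genes replicate 2 was the i4F p53 KO kidney nearest to i4F.

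**Figure D4:**
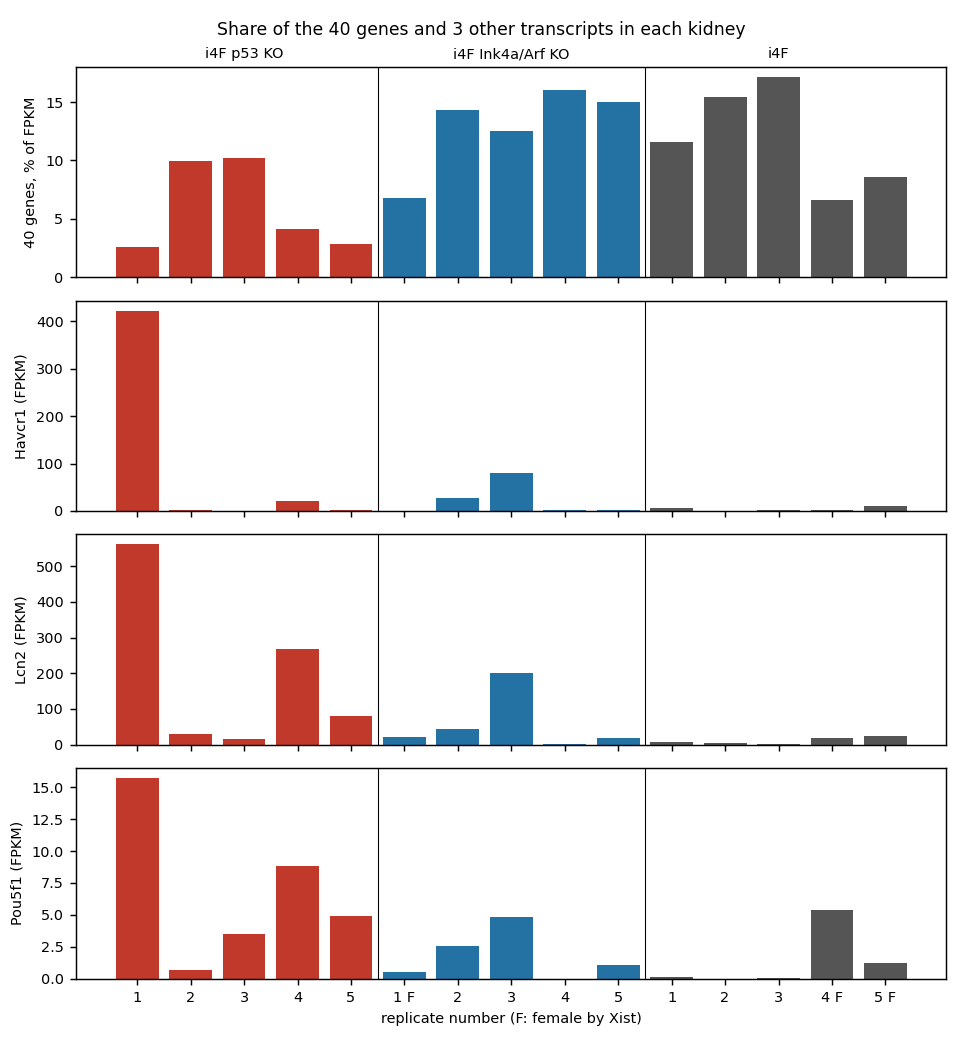
Bars show, for each kidney, the share of all FPKM held by the 40 genes (top) and the FPKM of Havcr1, Lcn2 and Pou5f1, with i4F p53 KO left, i4F Ink4a/Arf KO in the middle and i4F right (F for female). The share is 2.62%, 4.15% and 2.88% in i4F p53 KO replicates 1, 4 and 5, and replicate 1 also has the tallest bars of all 3 single genes.

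i4F Ink4a/Arf KO was compared with i4F to see whether loss of the other tumour suppressor locus altered the same genes. The list showed no common direction: 0 of the 40 were called, 19 log2 fold changes were negative and 21 positive, beside 51% of all genes negative, and the median was 0.04. limma called 0 of all 12431 genes here (0%) and 398 at an unadjusted p under 0.05 (3.2%, with 2.53% lower and 0.668% higher), of which 0 were among the 40. In 0 of the 40 did the 5 values lie wholly below or above i4F, beside 1.18% and 0.547% of all genes. The smallest p values belonged to Slc6a19, Slc34a3, Miox, Slc13a3 and Slc9a3, all described above. Replicate 3 had 16 of the 40 below all i4F kidneys, beside 13.9% of all genes, and the female replicate 1 had 10 of the 40, beside 16.1%. Replicate 3 held 74.7 FPKM of Slc5a2, 124 FPKM of Gatm, 527 FPKM of Miox and 100.3 FPKM of Slc13a3, each the lowest of its group, and 621 FPKM of Aqp1, the highest of the 15. It also had the highest Havcr1, Lcn2 and Pou5f1 of its group. Its Mep1b, at 129 FPKM, and its Napsa, at 2360.2 FPKM, lay above every i4F p53 KO kidney. The p that missed the threshold does not show that the 40 genes were equal: the SE of a log2 fold change ran from 0.13 for Hnf4a to 1.89 for Slc7a13.

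The knockouts were then compared with each other. These values share the i4F p53 KO kidneys with the comparison against i4F, so they do not add an independent estimate. Mpv17l fell in i4F p53 KO by 1.98 on the log2 scale against i4F Ink4a/Arf KO (SE 0.38, adjusted p = 0.0445), and it was the only call among the 40, beside 0.265% of all genes (0.161% lower). The call was lost in male kidneys alone (adjusted p = 0.0585) and in 12 of the 15 fits that left out 1 kidney, and held without i4F p53 KO replicate 2, i4F replicate 1 or i4F replicate 5. Next by p, and short of the threshold, were the log2 fold changes of Mep1b at -2.78 (SE 0.63, adjusted p = 0.0731), Mep1a at -1.52 (SE 0.37, adjusted p = 0.089), Slc7a7 at 0.73 (SE 0.21, adjusted p = 0.130) and Napsa at -1.09 (SE 0.33, adjusted p = 0.146). All 5 i4F p53 KO values lay below all 5 i4F Ink4a/Arf KO values for Mpv17l, Slc3a1 and Napsa, 3 of 40 beside 1.54% of all genes, and above them for 0 of 40 beside 1.92%. Of the 40, 32 were negative and the median was -0.47, beside 44.5% and 0.03 for all genes. At an unadjusted p under 0.05, 12 were lower and 2 higher, beside 7.36% and 10.6% of all genes.

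Other genes of the segment were taken as 2 lists from textbook knowledge. In i4F p53 KO against i4F, 44.6% of all genes were negative. At an unadjusted p under 0.05, 7.51% were lower and 5.69% higher, and 0.257% were called (0.169% lower). Of 31 other proximal tubule transport genes tested, 26 had negative log2 fold changes in i4F p53 KO against i4F, 12 were lower at an unadjusted p under 0.05, 0 were called and the median was -0.47. Of 41 other proximal tubule metabolism genes, 32 were negative, 13 were lower and 1 higher at an unadjusted p under 0.05, and the median was -0.32. The only call in these lists was Ace, the angiotensin-converting enzyme of the brush border. It measured 15, 40.1, 27.5, 22.6 and 14.9 FPKM in i4F p53 KO kidneys, against 57.6, 51.6, 53.3, 58.4 and 67.6 FPKM in i4F Ink4a/Arf KO and 38.9, 62.6, 71.7, 52.1 and 67.4 FPKM in i4F kidneys. Only i4F p53 KO replicate 2 reached into the i4F range, and Ace fell by 1.31 on the log2 scale (SE 0.24, adjusted p = 0.0315) against i4F and by 1.32 (adjusted p = 0.0407) against i4F Ink4a/Arf KO. In i4F Ink4a/Arf KO against i4F, the medians of the 2 lists were -0.01 and -0.14. There, 0 of 31 and 3 of 41 genes were lower at an unadjusted p under 0.05, beside 2.53% of all genes.

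Other segments and cell types of the kidney were read in i4F p53 KO against i4F by the same test. Of all genes, 44.6% were negative, 7.51% lower at an unadjusted p under 0.05 and 0.257% called. All 8 thick ascending limb genes were negative, 6 at an unadjusted p under 0.05, with a median of -0.87. Umod (uromodulin), its defining product, measured 1128, 1062, 505, 1061 and 1518 FPKM in i4F p53 KO kidneys, against 2985, 1172, 2699, 1198 and 1797 FPKM in i4F Ink4a/Arf KO and 1218, 1643, 1297, 1705 and 2436 FPKM in i4F kidneys. The distal convoluted tubule list had a median of -0.29 (8 of 8 negative), the collecting duct list -0.25 (11 of 14 negative) and the podocyte list 0.08 (3 of 8 negative). Fibroblast genes had a median of 0.31 (7 of 9 positive) and endothelial genes -0.23 (6 of 8 negative), and 0 genes of any of these 6 lists were called.

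The pancreas was used to see which of the 40 are found outside the kidney. There, 17 of the 40 stayed under 1 FPKM in all 15 libraries, among them Slc5a2, Slc13a1, Cubn, Slc3a1, Mep1a and Mep1b. Only 8 reached 1 FPKM in every library: Slc7a8, Aqp1, Ass1, Gatm, Mpv17l, Ggt1, Anpep and Hnf4a. In i4F pancreas, Slc7a8 averaged 53.5% of its i4F kidney mean, Anpep 45.7%, Gatm 34.8% and Ggt1 13%, while Hnf4a averaged 2.31% and Slc34a1 0.0202%. The tables were deposited separately, so these shares rest on FPKM scaled within each library.

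Kap, the most abundant of the 40 in kidney, was seen in some pancreas libraries of each group. It measured 0, 0.298, 24.3, 16.7 and 15.1 FPKM in pancreas under the p53 KO label, against 0, 10.5, 0, 0 and 42.9 FPKM in i4F Ink4a/Arf KO and 13.2, 0, 0, 0 and 37.7 FPKM in i4F pancreas. It was at 10.5 FPKM or more in 7 libraries, spread over all 3 groups, and at 0.298 FPKM or less in the other 8. The same 7 held 0.112 to 1.83 FPKM of Slc34a1, listed at 0 in all of the other 8. They held 0.147 to 1.90 FPKM of Slc27a2, against 0 to 0.196 FPKM in the others, and 0.206 to 2.89 FPKM of Miox, against 0 to 0.217 FPKM. The highest Kap, in i4F Ink4a/Arf KO replicate 5, was 1.06 per 1000 of the mean of male kidneys. Among the 7 was i4F replicate 5, female by Xist. Values of the 40 near these levels in pancreas were not read as expression there.

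Several members differed by label in pancreas, and for some of them the direction depended on scaling. Trp53 was not low in the libraries labelled p53 KO, at 6.65 to 24.8 FPKM, against 1.97 to 4.16 FPKM in i4F Ink4a/Arf KO pancreas and 1.64 to 6.99 FPKM in i4F pancreas, so no direction is drawn from that label. Median-of-ratios scaling lowered the libraries labelled p53 KO by 2.04 (log2) relative to i4F. Ggt1 measured 7.28, 11.5, 39.5, 44.5 and 2.28 FPKM in pancreas under the p53 KO label, against 87.7, 58.2, 64, 53.2 and 58.5 FPKM in i4F Ink4a/Arf KO and 71.5, 55.2, 62, 67.9 and 76.1 FPKM in i4F pancreas. All 5 values under the p53 KO label lay below the 10 others, and the log2 ratio of means to i4F was -1.66 in FPKM and -3.16 after scaling. Slc7a7 measured 17.3, 20.2, 14.6, 6.01 and 25.7 FPKM in pancreas under the p53 KO label, against 1.56, 0.943, 1.85, 2.11 and 1.77 FPKM in i4F Ink4a/Arf KO and 0.861, 1.44, 1.88, 3.86 and 1.52 FPKM in i4F pancreas, all 5 above the 10 others, with log2 ratios of 3.13 and 1.10. Anpep measured 35.9, 41.2, 39.8, 41.6 and 21.3 FPKM in pancreas under the p53 KO label, against 13.8, 22.8, 24.5, 17.8 and 12 FPKM in i4F Ink4a/Arf KO and 17.8, 18.9, 17, 21.6 and 28.1 FPKM in i4F pancreas, and its log2 ratio was 0.80 in FPKM and -1.05 after scaling. Ass1, Aqp1, Mpv17l and Hnf4a also changed sign with scaling. Gatm and Slc7a8 had lower means under both, at -1.01 and -0.73 in FPKM and -2.56 and -2.45 after scaling. Their FPKM overlapped, however. Gatm ranged from 31 to 116 FPKM under the p53 KO label, against 78.9 to 223 FPKM in i4F pancreas. Slc7a8 ranged from 9.13 to 25.9 FPKM, against 21.6 to 37.2 FPKM.

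**Figure D5:**
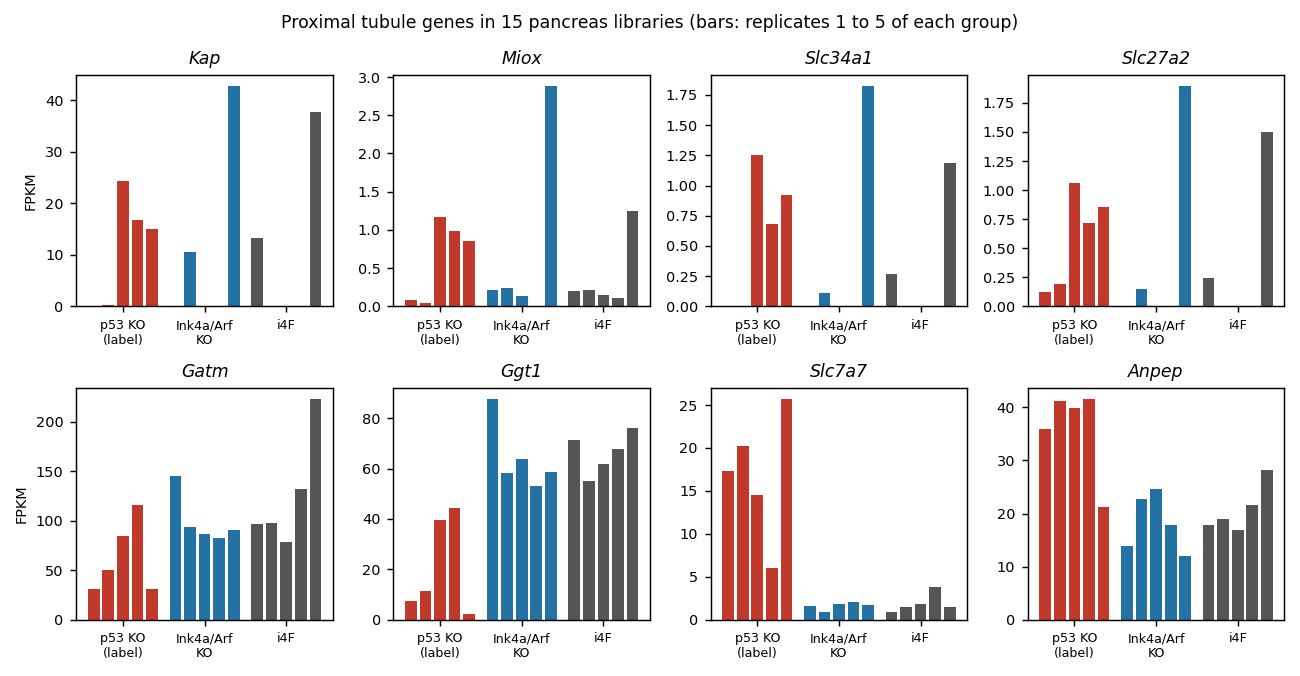
FPKM of 8 of the genes in the 15 pancreas libraries, with bars for replicates 1 to 5 of the libraries labelled p53 KO (left), i4F Ink4a/Arf KO and i4F (right), each panel with its own axis from 0. In the top row, Kap and Slc34a1 are above 0.1 FPKM in the same 7 libraries of all 3 groups except for 0.298 FPKM of Kap in 1 more, Miox and Slc27a2 are highest among those 7, and in the bottom row Ggt1 is lower and Slc7a7 higher under the p53 KO label.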

How the data were processed

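Stranded poly(A) libraries were made from total RNA with 8 PCR cycles, with RNA integrity numbers of 7.4 to 9.4, per the labels' protocols. The deposited values are FPKM, computed by the authors and given in 1 table per tissue. Cufflinks 2.2.1, TopHat2 2.0.10, SAMtools 0.1.19, Bowtie 1.0.0, FastQC and build mm10 stand, without roles, in the submitters' processing notes. Any scaling between libraries is not given in the sources used here.

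Groups follow the labelled organ and genotype. Kidney values were fitted as log2(FPKM + 1) over all 15 libraries with limma 3.58.1 (R 4.3.3, eBayes with a trend, two-sided), for genes that reached 1 FPKM in 5 libraries or more. Fold changes on this scale understate those of low genes. The fit was tested on simulated data. No library pair was a duplicate (r = 0.893 to 0.981). Relative depth, read from the steps between low FPKM values, was 0.887 to 1.11 in kidney. For kidney, 28 rows repeat the gene name of another row, none of them on a list used here. Positions are from GENCODE M21 (GRCm38) and promoters from RefSeq (GRCm38.p6). Sex was read from Xist (female at 1 FPKM or more) and Ddx3y.

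The 40 genes, the other lists and the tests were chosen with earlier results of these data known. Values in every kidney are given for genes called in any comparison, the 12 smallest p in i4F p53 KO against i4F, the 5 smallest in each other comparison, and Kap, Hnf4a, Lrp2 and Slc34a1. Slc7a13, Acsm3 and Cyp2e1 were added after their values were seen, and the other members are given by ranges and counts. Alternatives were a pseudocount of 0.1, no filter or one of 5 FPKM, median-of-ratios scaling, rescaling without the acinar list, Xist as a covariate, male kidneys alone, the 2 groups compared alone, kidneys up to 100 FPKM of Clps, replicate number as a block and leaving out each kidney. Rescaling without Kap was chosen after seeing the data.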

Additional observations from a re-analysis of the deposited data

Results flagged for a closer look

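Single mice stood far from the other 4 of their group in 18 gene and group combinations, 9 of 120 in kidney and 9 of 36 in pancreas. The mark was a gap to the nearest mouse above 0.71 of the range of the 5, which chance passes in about 1 of 20 groups.

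In kidney, i4F Ink4a/Arf KO replicate 3 was low in 3 carriers: Slc34a3 at 13.3 FPKM, Amn at 73.5 FPKM and Slc13a3 at 100.3 FPKM. The female i4F Ink4a/Arf KO replicate 1 was low in Slc7a13 at 0.796 FPKM and in Slc27a2 at 783 FPKM. i4F p53 KO replicate 5 was low in Slc9a3 at 8.27 FPKM. In i4F kidneys, replicate 1 was low in Aqp1 at 264 FPKM and in Pck1 at 203 FPKM, and replicate 2 was low in Miox at 1473 FPKM.

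In pancreas, the libraries labelled p53 KO had replicate 1 high in Cyp2e1 at 25.9 FPKM and replicate 5 low in Anpep at 21.3 FPKM. In i4F Ink4a/Arf KO, replicate 5 was high in Kap at 42.9 FPKM and in Lrp2 at 0.194 FPKM, and replicate 1 was high in Gatm at 145 FPKM. In i4F pancreas, replicate 4 was high in Aqp1 at 17.3 FPKM, Napsa at 9.5 FPKM and Cyp2e1 at 8.93 FPKM, and replicate 5 was high in Slc7a8 at 37.2 FPKM.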

How the results depend on the processing

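Counts are given for i4F p53 KO against i4F and then for i4F p53 KO against i4F Ink4a/Arf KO; the cause of each shift was not tested. All genes called were 32 and 33 as reported. They were 62 and 67 with median-of-ratios scaling, 76 and 62 after rescaling without Kap, 244 and 313 with Xist as a covariate, 270 and 867 without the libraries above 100 FPKM of Clps, and 13 and 5 with only the 2 groups compared. The second comparison also gave 61 with a pseudocount of 0.1, 12 with no filter, 51 with a filter of 5 FPKM and 58 in male libraries. Of the 40, 0 and 1 were called as reported. The first count was 1 with median-of-ratios scaling and after rescaling without Kap, and both were 4 with Xist and 8 without the libraries above 100 FPKM of Clps. The second was 0 with no filter, in male libraries and with only the 2 groups compared. The median over the 40 moved to -0.96 without the libraries above 100 FPKM of Clps in the first. In i4F Ink4a/Arf KO against i4F, 1 gene was called with Xist and without the libraries above 100 FPKM of Clps, and the median over the 40 was -0.0907 with Xist.

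Leaving out 1 library at a time gave 7 to 166 genes called in the first comparison, 9 to 326 in the second and 0 to 1 in i4F Ink4a/Arf KO against i4F, and the first and second counts were highest without i4F p53 KO replicate 2. Of the 40, 0 to 4 were called in the first and in the second, and 0 in the third. The medians over the 40 were -0.56 to -0.30, -0.59 to -0.26 and -0.07 to 0.07. Hnf4a lay between -0.1316 (without i4F p53 KO replicate 2) and 0.0564 (without replicate 1) in the first comparison and also turned positive, at 0.0033, without replicate 5. Mpv17l against i4F Ink4a/Arf KO had adjusted p from 0.00642 to 0.121 in these fits and kept its call in 3 of 15.

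Whether replicate numbers pair the kidneys is not settled by these values. Correlations of same-numbered deviations were -0.0789 to 0.291 in the first comparison, with 3 of 5 above 0.1. At most 1 of 5 was above 0.1 in the others. With a replicate block, 17 and 16 genes were called, 0 of the 40 in both, and Mpv17l had an adjusted p of 0.112.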
